A study of Homo sapiens with 18 samples.

Results

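Cytosolic ribosomal proteins are the protein components of the ribosomes that translate messenger RNA outside mitochondria. Their genes were taken here from the deposited count table by name: protein-coding rows whose symbol begins with RPL or RPS and a digit, or is RPLP0, RPLP1, RPLP2 or RPSA, without the RPS6K kinases. This gave 91 of the 58735 genes in the table. They comprise 46 single genes of the large subunit, 31 of the small subunit, 10 paralogs (duplicated copies of another ribosomal protein gene), 3 readthrough names that join a ribosomal protein gene to its neighbour, and RPS19BP1, whose product binds RPS19 and is not a ribosomal protein. For 86 of the 91 the counts were high enough to be tested. The other 5 are the paralogs RPL39L and RPS4Y2 and the readthrough names RPL17-C18orf32, RPL36A-HNRNPH2 and RPS10-NUDT3.

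RNA was sequenced from LNCaP, an established androgen-responsive human prostate cancer line, in 18 libraries that form 6 groups of 3. Every group carried a short hairpin RNA that knocks down HOXB13, a prostate homeobox protein that binds DNA, so no library without the hairpin serves as a reference. The hairpin line was rescued from an inducible system with empty vector (EV), with wild-type HOXB13 (WT), or with a HOXB13 mutant (3A) that has alanine in place of its phosphorylation sites T8, T41 and S31. All cells were first kept in medium holding 2% of a serum stripped of steroids with charcoal, for 48 h, and were then given either the vehicle, ethanol at 0.1%, or 10 nM R1881, a synthetic androgen, for 24 h. The labels name no clone and do not say whether the 3 libraries of a group came from separate cultures, so p-values measure only how these libraries vary, and that variation could be technical. The design asks which genes depend on the rescue state within a treatment, on androgen within a rescue state, and on androgen differently between rescue states.

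The products of these genes, most of them needed in equal numbers, are assembled with ribosomal RNA in the nucleolus. Their mRNAs are among the most abundant of growing cells, and most begin with a C followed by a run of pyrimidines at the cap, the 5′ terminal oligopyrimidine (TOP) tract, through which mTORC1 controls their translation. The kinase mTOR, named in the title of the study, also phosphorylates the kinases of the ribosomal protein RPS6. Free RPL5 and RPL11 bind MDM2 and thereby connect ribosome assembly with p53.

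The tract can be read in the promoter table of RefSeq (build GRCh38.p14), which held an entry for 72 of the 91 genes. The following windows run 5′ to 3′ on the gene's strand from 10 bases before the annotated start to the 20th base of the transcript, and capitals mark a C followed by at least 4 pyrimidines. They are shown, among the 72 genes with an entry, for some whose levels differed between groups, for the stalk and mTOR-linked genes, and for a paralog without a tract.
RPLP1 (chr15:69452808-69452837, plus strand): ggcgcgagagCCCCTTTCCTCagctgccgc
RPS12 (chr6:132814559-132814588, plus strand): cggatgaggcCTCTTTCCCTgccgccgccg
RPL34 (chr4:108620566-108620595, plus strand): cttttttcttCCTCTTCCggggacgttgtc
RPL36 (chr19:5690285-5690314, plus strand): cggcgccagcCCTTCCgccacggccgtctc
RPL35 (chr9:124861938-124861967, minus strand): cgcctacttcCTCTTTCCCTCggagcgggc
RPL26 (chr17:8383174-8383203, minus strand): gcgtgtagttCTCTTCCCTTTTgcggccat
RPS23 (chr5:82278335-82278364, minus strand): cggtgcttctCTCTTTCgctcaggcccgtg
RPS6 (chr9:19380217-19380246, minus strand): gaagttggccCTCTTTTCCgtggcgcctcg
RPLP0 (chr12:120201092-120201121, minus strand): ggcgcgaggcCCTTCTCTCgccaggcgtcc
RPS27L (chr15:63157458-63157487, minus strand): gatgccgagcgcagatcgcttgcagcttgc
In the windows of RPLP1, RPS12, RPL34, RPL36, RPL35, RPL26, RPS23, RPS6 and RPLP0 the tract begins at the first transcribed base. The same was true of 45 of the 72 genes, with tracts of 5 to 19 bases. A tract lay within 15 bases of the start in 63 of the 72 (87.5%), against 43.4% of all 35116 promoters in the table. RPS27L, a p53-regulated paralog of RPS27, had none there.

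Each library held 22812641 to 30611980 counted reads. Levels are given as CPM, a gene's count scaled to the library's total over the tested genes after adjustment by edgeR's trimmed mean of M-values (TMM). HOXB13 RNA, the check of the labels, was 533 ± 33.9 CPM (SD, n = 3) in EV, 536 ± 50.2 in WT and 759 ± 102 in 3A with vehicle, and 416 ± 9.87, 347 ± 26.2 and 507 ± 71.0 with R1881. The WT label is therefore not borne out by more HOXB13 RNA than in EV, and WT groups are named below by their label alone. All 8 luminal prostate markers reached 1 CPM in at least 1 library. Of 4 immune markers 0 did, and 1 of 3 basal, 2 of 4 fibroblast and 1 of 3 endothelial markers did. Summed fibroblast markers ranged from 18.96 to 26.3 CPM with vehicle and from 12.5 to 19.9 CPM with R1881. Summed endothelial markers moved with the rescue state: with vehicle they ranged from 3.41 to 5.70 CPM in EV, 11.02 to 12.05 in WT and 11.1 to 12.4 in 3A, and with R1881 from 3.25 to 4.10, 5.50 to 6.60 and 3.94 to 5.31. Nearly all of that sum was VWF, with CDH5 and PECAM1 at most at 0.119 and 0.0832 CPM. Summed basal markers were at most 1.01 CPM outside WT with R1881, where they ranged from 1.12 to 3.30. The part of these markers in the results was not tested.

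The 91 genes took 6.79% to 11.2% of all counted reads. With vehicle the share was 9.47%, 8.82% and 10.3% in EV libraries 1, 2 and 3. It was 8.42%, 8.79% and 11.2% in the libraries labelled WT and 8.16%, 8.44% and 7.92% in 3A. With R1881 it was 8.92%, 8.39% and 9.61% in EV, 7.62%, 7.74% and 8.75% in the libraries labelled WT, and 7.97%, 6.79% and 7.81% in 3A. The 3A libraries thus lay under every EV library of the same treatment. WT vehicle library 3 stood above all others, and library 3 had the highest share in each EV and WT group. Ribosomal protein pseudogenes, 1144 rows that carry the name of 77 of the members, took a further 0.303% to 0.448%. Fewer cells with these mRNAs and less of the mRNA per cell cannot be told apart in such bulk RNA.

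Per length, on the authors' FPKM scale, the median library level ran from 0.514 (RPS10) to 1801 (RPL13A) over the 77 single genes of the subunits. RPS12, RPL7A, RPS2, RPLP0 and RPS18 followed RPL13A, at 1411, 1098, 1098, 882 and 866 FPKM. The FPKM of a gene depends in part on how reads that fit more than 1 gene were counted. Of the 91 members 44 held at least 1 stretch of 150 bases, the read length, that occurs unchanged in a transcript of another gene. In 8 of the 77 single genes more than 50% of such stretches did, and their median level was 29.8 FPKM, against 301 FPKM for the other 69. RPS10 is the clearest case: 88.2% of its stretches were shared, most often with the readthrough name RPS10-NUDT3. Of the reads counted to RPS10 and its pseudogene family, 93.3% lay in pseudogene rows. For RPL9 the percentage in pseudogene rows was 54.8. Levels of these genes are uncertain for that reason, and so are those of RPL17 (84.6% of stretches shared), RPL36A (73.2%), RPL21 (72.8%) and RPL26 (53.3%).

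In vehicle, most ribosomal protein mRNAs that were called in 3A against EV were lower in 3A. Of the 86 tested, 17 fell and 3 rose (edgeR, adjusted p under 0.05 over all 17162 genes tested), where 7.25% of all tested genes were called in either direction, 3.27% lower and 3.97% higher. The median log2 fold change of the 86 was -0.27, against 0.00 over all genes tested, and 77 of 86 lay below 0. In the large subunit 12 of 46 fell and 2 rose, in the small subunit 5 of 31 fell and 1 rose, and of the 8 tested paralogs 0 were called (2 were lower at an unadjusted p under 0.05).

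RPS15A, which encodes a small-subunit protein and fell most (chromosome 16, 18781295 to 18790383, minus strand, hg38), measured 176, 189.8 and 183 CPM in the EV vehicle libraries and 106, 67.3 and 71.3 CPM in 3A. The groups did not overlap, and 3A library 1 lay nearest to EV. Its log2 fold change was -1.16 ± 0.15 (standard error; edgeR adjusted p = 2.66e-05). RPLP1 encodes an acidic protein of the stalk, the part of the large subunit that recruits elongation factors (chromosome 15, 69452784 to 69456194, plus strand). It measured 2032, 1909 and 2199 CPM in EV and 1330, 1174 and 997 CPM in 3A, a log2 fold change of -0.81 ± 0.12 (edgeR adjusted p = 0.000111) between groups that lay well apart. The other stalk genes did not pass: RPLP0 was at -0.29 (edgeR adjusted p = 0.0795) and RPLP2 at -0.24 (edgeR adjusted p = 0.43).

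RPS20, a protein of the small-subunit head, measured 842, 773 and 1007 CPM in EV and 554, 488 and 437 CPM in 3A (log2 fold change -0.83 ± 0.14, edgeR adjusted p = 0.00031). RPL34, of the large subunit (chromosome 4, 108620566 to 108630412, plus strand), measured 645, 609 and 789.9 CPM in EV and 429, 421 and 385 CPM in 3A (-0.73 ± 0.13, edgeR adjusted p = 0.000963). In both genes every 3A library lay below every EV library. RPL17, which lines the exit tunnel for the nascent chain, fell from 31.4 ± 1.94 to 18.2 ± 5.90 CPM (-0.78 ± 0.16, edgeR adjusted p = 0.00257). As its reads are shared with other genes (above) and 35.3% of its exon bases overlap another gene, this level is uncertain.

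The remaining 12 that fell, all with groups that did not overlap (as for 12.5% of all genes tested in the lower direction), included RPS12, RPL22, RPL27, RPL21, RPL18, RPL13, RPS7, RPL10, RPL8, RPSA and RPL10A, with log2 fold changes of -0.65 for RPS12 to -0.31 for RPL10A. RPSA, which is also known as a laminin receptor, is at the small end of these (2557 ± 116 to 1987 ± 211 CPM, -0.36, edgeR adjusted p = 0.0421). RPL10 lies in exons of which 55.5% overlap DNASE1L1. The genes fixed for naming that did not pass in vehicle were RPL13A (-0.14, 95% interval -0.39 to 0.11), RPS6 (-0.20, -0.49 to 0.09), RPL3 (-0.21, -0.40 to -0.02), RPL5 (-0.16, -0.43 to 0.12), RPL11 (-0.16, -0.46 to 0.14) and RPL41 (0.05, -0.28 to 0.39). RPS6 is the substrate of the S6 kinases and RPL3 helps to form the peptidyl transferase centre.

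The 3 that rose in 3A against EV with vehicle were RPL30, RPS23 and RPL23A. RPL30, which in other species is known to bind its own transcript, measured 119, 85.1 and 126 CPM in EV and 215, 307 and 289 CPM in 3A (1.30 ± 0.26, edgeR adjusted p = 0.00227). RPS23, a protein of the decoding centre (chromosome 5, 82273358 to 82278577, minus strand), measured 135, 144 and 129 CPM in EV and 205, 339 and 351 CPM in 3A (1.14 ± 0.19, edgeR adjusted p = 0.000483). RPL23A, at the exit of the tunnel (chromosome 17, 28719393 to 28724359, plus strand), measured 406, 333 and 414 CPM in EV and 692, 711 and 649.5 CPM in 3A (0.83 ± 0.21, edgeR adjusted p = 0.0176). In each of the 3, every 3A library exceeded every EV library (as for 13.8% of all genes tested), and in RPS23 and RPL30 the lowest 3A library was number 1.

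Of these 20 calls 11 held without any 1 of the 6 libraries, among them RPS15A, RPLP1, RPS20, RPL34, RPL17, RPS12, RPL22, RPL27, RPL30 and RPS23. The count of genes that fell was 10 without EV vehicle library 3, 10 without 3A vehicle library 2 and 9 without 3A vehicle library 3.

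With R1881 the calls between 3A and EV were again mostly lower in 3A. Of the 86 tested, 25 fell and 1 rose (edgeR), where 8.45% of all tested genes were called, 4.06% lower and 4.39% higher. The median log2 fold change was -0.29, against -0.00 over all genes tested. Of the large subunit 17 of 46 fell and of the small subunit 8 of 31 fell and 1 rose, while 0 of 8 paralogs were called (2 were lower at an unadjusted p under 0.05).

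RPL36, a large-subunit protein (chromosome 19, 5674947 to 5691876, plus strand), fell most, from 997, 1018 and 1146 CPM in the EV libraries to 689.9, 436 and 439 CPM in 3A (-1.01 ± 0.18, edgeR adjusted p = 0.00113). RPL37, a zinc-binding protein of the large subunit (chromosome 5, 40825262 to 40835335, minus strand), measured 725, 731 and 776 CPM in EV and 569.8, 321 and 382 CPM in 3A (-0.81 ± 0.18, edgeR adjusted p = 0.0076). Neither gene's groups overlapped, and in both 3A library 1 was the highest of its group. RPS15A measured 156, 130.5 and 166 CPM in EV and 110.5, 71.9 and 85.9 CPM in 3A (-0.75 ± 0.15, edgeR adjusted p = 0.0031). RPL35, which sits at the exit tunnel (chromosome 9, 124857880 to 124861981, minus strand), measured 1067, 1048 and 1155 CPM in EV and 768, 565 and 684 CPM in 3A (-0.70 ± 0.16, edgeR adjusted p = 0.0079). RPL8, which lies near the peptidyl transferase centre, measured 1907, 1870 and 1989 CPM in EV and 1443, 1090 and 1038 CPM in 3A (-0.69 ± 0.12, edgeR adjusted p = 0.000645). These 3 genes, too, were lower in every 3A library than in any EV library, as were 2574 of all 17162 genes tested.

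RPLP1 fell with R1881 as well, from 1734, 1513 and 1825 CPM to 1152, 1033 and 1291 CPM (-0.55 ± 0.12, edgeR adjusted p = 0.0063), while RPLP0 (-0.21, edgeR adjusted p = 0.19) and RPLP2 (-0.46, edgeR adjusted p = 0.0879) did not pass. RPL11 fell from 533 ± 12.9 to 359 ± 48.0 CPM (-0.57 ± 0.15, edgeR adjusted p = 0.0172), and RPL5, its partner in the complex that binds MDM2, was at -0.05 (95% interval -0.32 to 0.22). RPS23 was the gene that rose: it measured 120.2, 134 and 142 CPM in EV and 172, 225 and 309 CPM in 3A (0.83 ± 0.19, edgeR adjusted p = 0.00881), with every 3A library above EV. Without EV R1881 library 1 or 3A R1881 library 3 that call was lost (edgeR adjusted p up to 0.0941). Other genes that fell were RPS21, RPL39, RPS12, RPS2, RPL17, RPL27, RPL18, RPS20, RPL35A, RPS18, RPL12, RPS3, RPL10A, RPL22, RPL32 and RPL10, between -0.59 for RPS21 and -0.35 for RPL10. For RPL17 the call is at the threshold (edgeR adjusted p = 0.05) and none of its 6 leave-one-out values passed.

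Of the 26 calls 11 held without any 1 library, among them RPL36, RPL37, RPS15A, RPL35, RPL8, RPLP1, RPS12, RPL27 and RPL10A. The count of genes that fell was 14 without EV R1881 library 1, 11 without EV R1881 library 3, 11 without 3A R1881 library 2 and 15 without 3A R1881 library 3.

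The comparisons of 3A with EV in vehicle and with R1881 use separate libraries. Lower in both were 12 genes, with RPL8, RPL10, RPL10A, RPL17, RPL18, RPL22, RPL27, RPLP1, RPS12, RPS15A and RPS20 among them. This is 70.6% of those that fell in vehicle and 48% of those that fell with R1881. Over all 17162 genes tested, 289 (1.68%) were lower in both, which is 51.4% and 41.5% of the genes lower in each. RPS23 was the gene higher in both. The difference between the responses, R1881 in 3A minus R1881 in EV, was called for 0 of the 86 (edgeR; 0.0117% of all genes tested were called), with 3 lower at an unadjusted p under 0.05 and 0 called by DESeq2, so calls made in 1 treatment are not shown to be particular to it. For RPL30 and RPL23A the log2 fold change of 3A against EV was 1.30 and 0.83 in vehicle and 0.13 and 0.28 with R1881, where their EV levels were 237 ± 21.5 and 629 ± 76.2 CPM against 110.1 ± 21.9 and 384 ± 44.8 CPM in vehicle.

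**Figure D1:**
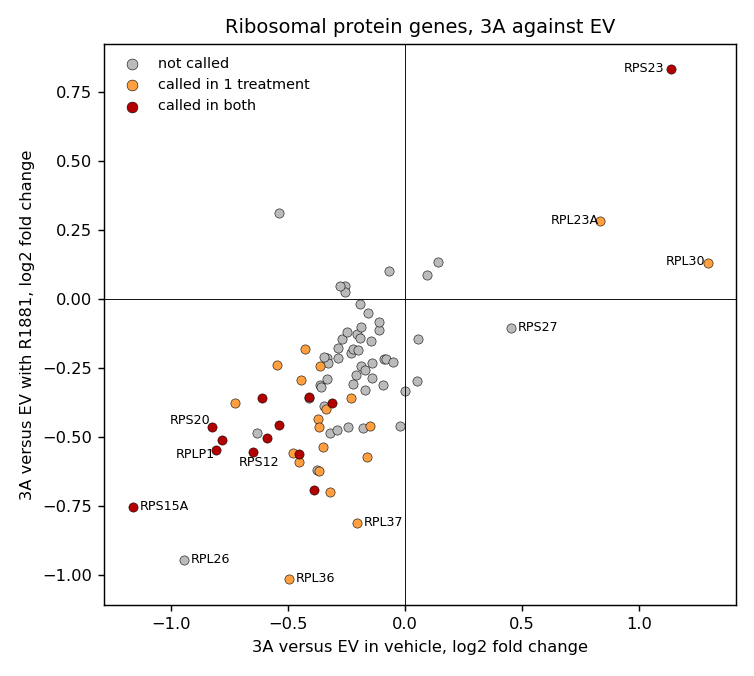
Log2 fold change of 3A against EV with vehicle (horizontal) and with R1881 (vertical) for the 86 tested ribosomal protein genes; orange points were called by edgeR in 1 treatment and red points in both. Most points lie at the lower left, RPS15A among the lowest in both, and RPS23 lies in the upper right.

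Genes around ribosome production were examined beside these, in 3A against EV, where 3.27% of all tested genes fell and 3.97% rose with vehicle, and 4.06% fell and 4.39% rose with R1881. Of 30 ribosome biogenesis factors 0 rose and 1 fell with vehicle (GNL3, -0.35), and 0 rose and 2 fell with R1881 (NHP2, -0.57; RRP12, -0.33). Their medians were 0.03 and -0.00. Of 18 translation factors and other TOP mRNAs 2 fell in each treatment: EEF1B2 (-0.34) and NACA (-0.52) with vehicle, EEF1B2 (-0.35) and EEF2 (-0.36) with R1881. Their medians were -0.06 and -0.02. All of these calls are from edgeR at an adjusted p under 0.05.

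Host genes of small nucleolar RNAs, whose spliced transcripts often carry TOP tracts, had medians of -0.38 and -0.37. With vehicle 4 of 13 fell, against 3.27% of all tested genes (ZFAS1, -0.98; GAS5, -0.57; SNHG5, -0.56; SNHG29, -0.36) and SNHG16 rose (0.44). With R1881 4 of 13 fell, against 4.06% of all (SNHG32, -1.26; SNHG5, -0.77; SNHG8, -0.57; SNHG29, -0.30) and SNHG16 rose (0.39). Of 77 mitochondrial ribosomal protein genes, which build the separate ribosome of mitochondria, 2 rose and 2 fell with vehicle and 1 rose and 2 fell with R1881, with medians of -0.06 and -0.03. MRPL12 fell in both (-1.20 and -1.26). In the mTORC1 arm, 10 genes from MTOR to MAF1, 0 were called with vehicle (1 was lower at an unadjusted p under 0.05) and EIF4EBP1, which encodes a translation repressor that mTORC1 inactivates, fell with R1881 (-0.87). Of 15 p53 targets 3 fell with vehicle: SESN2 (-0.99), BBC3 (-0.71) and GDF15 (1140 ± 156 CPM in EV and 571 ± 46.1 in 3A). With R1881 4 fell, these 3 among them (SESN2, -1.18; BBC3, -1.14; GDF15, -0.86), and MDM2 rose (0.36). Over all tested genes, 3.27% fell with vehicle and 4.06% with R1881.

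In 3A against the libraries labelled WT with vehicle, 12 of 86 fell and 1 rose (edgeR; 5.63% of all tested genes were called, 2.99% lower and 2.64% higher). The median was -0.27, or -0.09 without WT vehicle library 3. RPL26, a large-subunit protein near the exit tunnel (chromosome 17, 8377516 to 8383250, minus strand), measured 116, 121 and 192.5 CPM in WT and 100.5, 52.2 and 48.4 CPM in 3A (-1.09 ± 0.32, edgeR adjusted p = 0.048). Library 1 of 3A lay just below WT and the other 2 far below. The same split of the 3A libraries was seen with R1881, where RPL26 measured 136, 51.5 and 43.9 CPM. Its call was lost without WT vehicle library 2 or 3 or 3A vehicle library 2 or 3 (edgeR adjusted p up to 0.2095).

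RPS15A measured 142.5, 139 and 166 CPM in the libraries labelled WT (3A against WT, -0.87 ± 0.15, edgeR adjusted p = 0.00117), all above the 3A libraries. RPS20 was at -0.70 (edgeR adjusted p = 0.00278), RPL17 at -0.70 (edgeR adjusted p = 0.0099) and RPS12, a small-subunit protein, at -0.62 (edgeR adjusted p = 0.00266), and RPS23 was higher (1.13 ± 0.19, edgeR adjusted p = 0.000998). RPLP1, RPL21, RPL34, RPL22, RPL18, RPL27 and RPL10 also fell, by log2 fold changes between -0.60 for RPLP1 and -0.36 for RPL10. Without WT vehicle library 3, 7 fell and 3 rose. The count that fell was 22 without WT vehicle library 1, 5 without 3A vehicle library 2 and 6 without 3A vehicle library 3.

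With R1881, 3A and the libraries labelled WT differed in 1 of the 86 genes (3.18% of all genes tested were called by edgeR, 1.41% higher). RPS23 measured 120.2, 135 and 153 CPM in WT and 172, 225 and 309 CPM in 3A (0.79 ± 0.19, edgeR adjusted p = 0.025), a call that was lost without WT R1881 library 1 or 2 or 3A R1881 library 3 (edgeR adjusted p up to 0.17). The median was -0.05. Whether 3A differs from WT more in vehicle than with R1881 was tested directly: 0 of 86 differed (edgeR; 0.0583% of all genes tested were called; 5 were higher at an unadjusted p under 0.05 and DESeq2 called 0), and the median difference of 0.20 was 0.02 without WT vehicle library 3.

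The libraries labelled WT did not differ from EV in vehicle in any of the 86 genes by edgeR (0.769% of all genes tested were called). DESeq2 called 0. At an unadjusted p under 0.05, 3 of the 86 were higher: RPL30 (0.67), RPL23A (0.57) and RPS27 (0.46). The median was -0.01 and moved to -0.17 without WT vehicle library 3. With R1881, 6 fell and 0 rose (8.70% of all genes tested were called, 4.04% lower), and the median was -0.23, with 81 of 86 below 0. RPL36 measured 997, 1018 and 1146 CPM in EV and 632, 522 and 840.5 CPM in WT (-0.66 ± 0.18, edgeR adjusted p = 0.0279). RPL35 fell by 0.62, RPS9 by 0.49, RPL8 by 0.47 and RPS2 by 0.45 on the log2 scale (edgeR adjusted p = 0.019, 0.0165, 0.0155 and 0.0369). RPS9 and RPS2 both sit at the channel through which mRNA enters the small subunit. In each of the 6, every WT library lay below every EV library, as in 15.8% of all genes tested. None of the 6 calls held without every library in turn. The count was 0 without EV R1881 library 3, 1 without WT R1881 library 1, 0 without WT R1881 library 2 and 15 without WT R1881 library 3, and DESeq2 called 15.

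**Figure D2:**
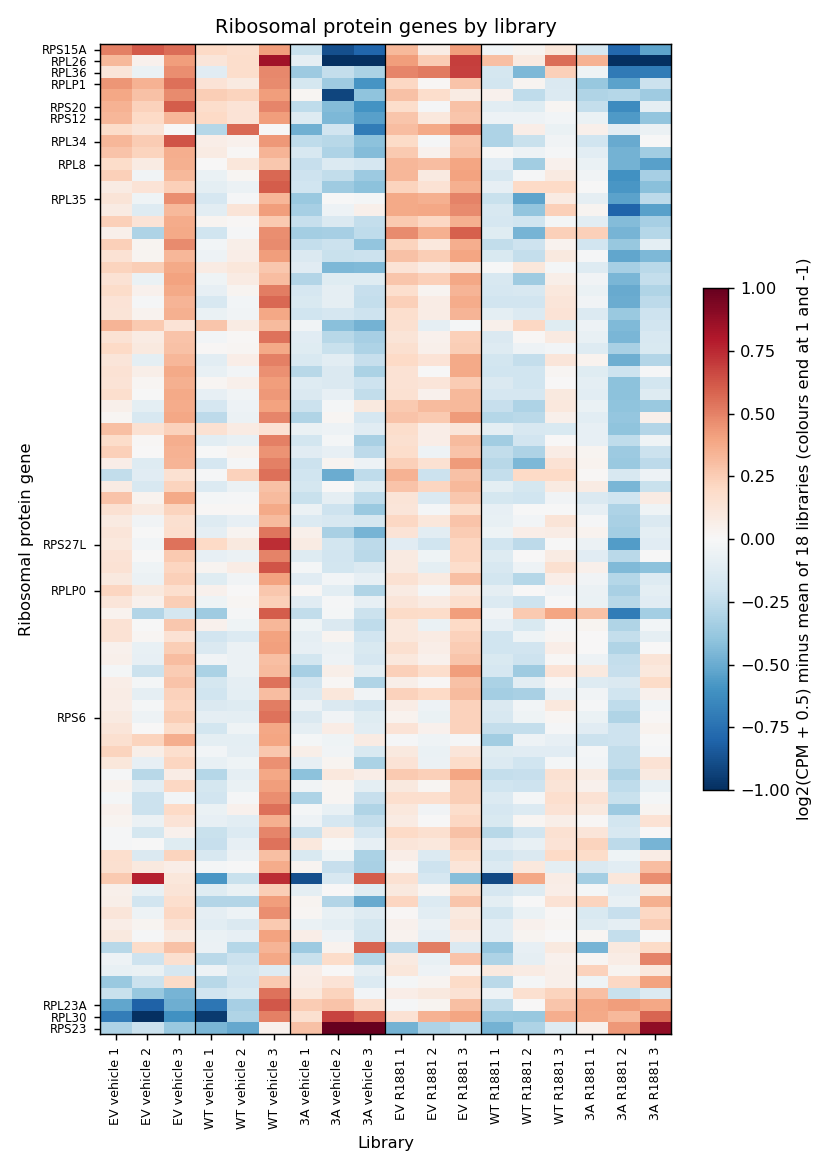
Each row is 1 of the 86 tested ribosomal protein genes and each column 1 library; colour gives log2(CPM + 0.5) minus the gene's mean over the 18 libraries, and colours end at 1 and -1. Rows run from the lowest to the highest mean log2 fold change of 3A against EV over both treatments, and 15 rows are labelled. WT vehicle library 3 is above the mean in nearly all rows, 3A columns are mostly below it, and RPS23, RPL30 and RPL23A run the other way.

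Androgen itself left most of these mRNAs without a call. In EV, 3 of 86 rose with R1881 and 0 fell (edgeR), where 25.3% of all genes tested were called and 13.2% were higher, and the median was 0.02. RPL30 went from 119, 85.1 and 126 CPM with vehicle to 212, 244 and 253 CPM with R1881 (1.10 ± 0.26, edgeR adjusted p = 0.00254), and RPL23A from 406, 333 and 414 to 577, 594 and 717 CPM (0.71 ± 0.21, edgeR adjusted p = 0.0164). RPS27, a zinc-binding protein of the small subunit, went from 533, 478 and 452 to 652, 665 and 687 CPM (0.45 ± 0.16, edgeR adjusted p = 0.0373). In all 3 genes the groups did not overlap, which held for 21.2% of all genes tested in this direction. The mean of each was lowest in EV with vehicle among the 6 groups. The rises of RPL30 and RPL23A in 3A against EV with vehicle use the same EV libraries and are not separate evidence. The R1881 log2 fold changes of RPL30, RPL23A and RPS27 were 0.04, 0.06 and 0.01 in WT and -0.06, 0.16 and -0.11 in 3A, none of them called. The call of RPL30 held without any 1 library. That of RPL23A was lost when EV vehicle library 2 or EV R1881 library 3 was left out (edgeR adjusted p up to 0.0688), and that of RPS27 was lost without any 1 of the libraries other than EV vehicle library 1 (edgeR adjusted p up to 0.101).

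In the libraries labelled WT, 0 rose with R1881 and 3 fell (20.1% of all genes tested were called by edgeR, 9.14% lower), with a median of -0.20 and 80 of 86 below 0. RPS27L measured 88.5, 82.4 and 129 CPM with vehicle and 67.0, 64.2 and 76.96 CPM with R1881 (-0.53 ± 0.17, edgeR adjusted p = 0.0352). RPL34 fell by 0.38 (edgeR adjusted p = 0.0475) and RPL10A by 0.26 on the log2 scale (edgeR adjusted p = 0.0285). None of these 3 calls held without every library in turn. That of RPL10A held in 0 of 6 such fits (edgeR adjusted p up to 0.0915). Without WT vehicle library 3 the median was -0.03 and 0 fell and 1 rose. Without WT R1881 library 1 or 2, 0 fell, and without WT vehicle library 1, 6 fell. In 3A, 0 of 86 were called (24.5% of all genes tested were; 1 was higher and 1 lower at an unadjusted p under 0.05; DESeq2 called 0), and the median was 0.01. The response of the libraries labelled WT did not differ from that of EV in any of the 86 by edgeR (0.198% of all genes tested did), with 10 lower at an unadjusted p under 0.05, 0 called by DESeq2 and a median difference of -0.24, or -0.06 without WT vehicle library 3.

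Paralogs and their partners were set side by side in 3A against EV. RPL22 fell in both treatments (-0.61 and -0.36), and RPL22L1, a paralog that can take its place, was at -0.26 (95% interval -0.62 to 0.10) and 0.05 (-0.31 to 0.41). RPL10 fell in both (-0.41 and -0.35), and RPL10L, known from testis and measured here at 2.06 to 5.69 CPM, was at -0.63 (-1.11 to -0.16) and -0.49 (-0.95 to -0.02), with neither passing after adjustment (edgeR adjusted p = 0.104 and 0.198). RPL26 was at -0.94 in both treatments (edgeR adjusted p = 0.0795 and 0.0726), and RPL26L1 at -0.26 (-0.54 to 0.02) and 0.03 (-0.26 to 0.31). RPL39 did not pass with vehicle (-0.48, edgeR adjusted p = 0.0682) and fell with R1881 (-0.56, edgeR adjusted p = 0.0287), while RPL39L had 0 counts in all 18 libraries. RPL36A (-0.54 and 0.31) and RPL36AL (-0.38 and -0.62), RPS27 (0.45 and -0.11) and RPS27L (-0.35 and -0.21), RPL7 (-0.11 and -0.08) and RPL7L1 (0.10 and 0.09), RPL3 (-0.21 and -0.27) and the muscle paralog RPL3L (-0.34 and -0.29), and RPS4X (-0.19 and -0.10) and RPS4Y1 (-0.25 and -0.12) were not called in either treatment. Whether the fold changes of 2 partners differ was not tested.

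Ribosomal protein genes are short. The coding length of the 86 had a median of 454.5 bases (75 to 1281), against 1413 bases for the 13180 tested protein-coding genes. Gene length, the summed exon length in the table, had a median of 2992 against 4217.5 bases over all genes tested, and GC content 49.8% (40.3% to 63.5%) against 49.2%. Both properties moved with the contrasts over all genes. In the quintile of protein-coding genes with the shortest coding length, which held 72 of the 86, the median log2 fold change was -0.09 for 3A against EV with vehicle, -0.06 with R1881, -0.12 for 3A against WT with vehicle and -0.08 for WT against EV with R1881. In the quintile of genes with the highest GC content, which held 8 of the 86, it was -0.05, -0.18, 0.02 and -0.21 in the same order. The medians of the 86 in these 4 comparisons were -0.27, -0.29, -0.27 and -0.23, each lower than that of either quintile.

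**Figure D3:**
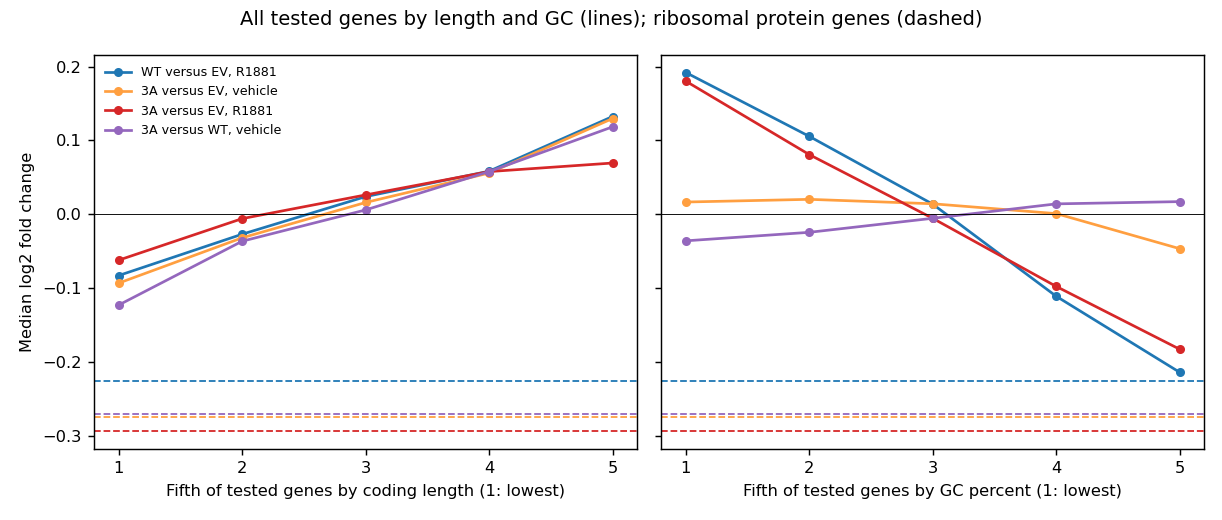
Median log2 fold change in each quintile of tested genes for 4 comparisons (points and lines), by coding length (left, 13180 protein-coding genes) and GC content (right, 17153 genes). Dashed lines of the same colour give the median of the 86 ribosomal protein genes. The shortest quintile lies between -0.12 and -0.06 and the dashed lines between -0.29 and -0.23.

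Within the 86, the fold change of WT against EV with R1881 ran with GC content (Spearman's rho -0.53, n = 86 genes measured in the same libraries; -0.41 over all 17153 genes with a GC value), and RPL36, RPL35, RPS9, RPL8 and RPS2, which fell there, have 58.2% to 63.5% GC. For 3A against EV rho with GC was 0.01 with vehicle and -0.25 with R1881, and rho with coding length was 0.02 and 0.22. When each library's dependence on gene length and GC was removed before the fit, 3A against EV gave 18 that fell and 4 that rose with vehicle (median -0.27) and 19 and 1 with R1881 (median -0.25), and WT against EV with R1881 gave 5 that fell (median -0.22). With coding length in place of gene length, among protein-coding genes, a correction chosen after the data had been seen, the medians of 3A against EV were -0.22 and -0.17, with 21 and 29 that fell. That of 3A against WT with vehicle was -0.16, with 16 that fell and 3 that rose. The counts after these corrections are not set against the share of all tested genes called in the same fits.

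The promoter sequences were read beside these calls. Of the 72 with an entry, the tract began at the first transcribed base in 7 of the 13 that fell in 3A against EV with vehicle and in 36 of the 55 that were not called. With R1881 these numbers were 12 of 18 and 31 of 50. RPS23, which rose, has such a tract (window above). Over the 300 bases around the start, both strands searched, CCGGAAG, a site of ETS factors, was present in 31.9% of the 72 and in 10.3% of all promoters, and GGGCGG, a GC box, in 52.8% and 45.0%. CAATAAA, which HOXB13 prefers, was found in 0 of the 72 and in 1406 of all 35116 promoters. AGAACA, one arm of an androgen response element, was found in 13.9% and 14.8%. Matches are counts of letters in this window only.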

How the data were processed

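RNA from 18 LNCaP libraries was prepared with a NEBNext Ultra II kit and sequenced as 150-base read pairs, per the labels' protocols. Gene counts (unscaled numbers of reads) and FPKM values were deposited by the authors as 2 tables. HISAT2 2.0.5, featureCounts 1.5.0-p3 and hg38 are named in the submitters' processing notes, and the sources used here do not give the annotation release, the strand setting or how reads that fit several genes were treated. All 58735 genes had the start, end and length of GENCODE release 29, which supplied coding lengths and GC content. The authors' FPKM values equalled scaled count per length within 0.1% for 100% of 285138 values with counts of at least 10 and were used only to compare levels between genes.

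Tests used edgeR 4.0.16 under R 4.3.3 on the unaltered counts (17162 genes that passed filterByExpr at a count of 10 and a total of 15; TMM; a quasi-likelihood fit of 6 groups over all 18 libraries with 12 residual degrees of freedom). Each comparison's p-values were adjusted over all its tested genes (Benjamini-Hochberg), and an adjusted p under 0.05 was called. Errors of log2 fold changes are standard errors, and errors of CPM levels are SDs over the libraries of a group. Intervals are at 95%, and the procedure was tested on simulated data. For count data without molecular identifiers, counting error does not cover amplification. No 2 libraries of a group agreed within sampling noise (chi-square per degree of freedom 8.43 to 50.4).

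The genes and lists were chosen with earlier results of these data known. Named genes are all called members where 10 or fewer were called, otherwise the 5 largest rises and falls among called members of at least 1 CPM whose groups did not overlap, with the stalk genes, RPSA, RPS6, RPL13A, RPL3, RPL5, RPL11, RPL23A, RPL41 and 9 pairs of paralogs, and up to 4 members of a list with the smallest adjusted p. Further called members are named beside these. Some genes that met these rules are not reported here and stay in every count. Lists cover ribosome biogenesis (30 genes), TOP mRNAs (19), small nucleolar RNA hosts (13), mitochondrial ribosomal proteins (78), the mTORC1 arm (10), p53 targets (15), mitochondrially encoded mRNAs (13) and cell type markers. Alternatives were RLE scaling, TMM without ribosomal protein and mitochondrial genes, DESeq2 1.42.0, 2 other filters, fits to the compared groups, a replicate block, corrections for length and GC by splines, and leaving out each library.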

Additional observations from a re-analysis of the deposited data

How the results depend on the processing

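Of the called results, 0 changed direction under an alternative. Counts of ribosomal protein genes called by edgeR moved more than their medians did, and the causes were not tested unless the construction shows them. They are given as genes that rose and fell with R1881 in EV, WT and 3A, and then between rescue states. The share of all tested genes called under each alternative, leave-one-out fits among them, is not given. Whether a change in count is particular to ribosomal protein genes was therefore not tested. RPS10, RPL36A, RPL3L and RPL10L stayed under 6 CPM, so few reads bear on them. In RPS10 and RPL36A, 88.2% and 73.2% of the stretches of read length also occur in another gene. What keeps the counts of these genes low was not tested.

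Without a filter on low counts 10 rose in EV and 6 fell in WT, with 2 higher and 1 lower in 3A; 3 rose in WT against EV with vehicle and 25 fell with R1881; 29 fell in 3A against EV with vehicle and 41 with R1881; 2 rose and 23 fell in 3A against WT with vehicle, and 3 rose and 4 fell with R1881. The response of WT minus EV then had 5 lower and that of 3A minus EV 2 lower. A fit to only the groups compared, which have fewer libraries, gave 10 that rose and 3 that fell in EV, 1 that rose in 3A, 23 that fell in WT against EV with R1881, 28 that fell in 3A against EV with vehicle and 5 that fell in 3A against WT with vehicle. DESeq2 gave 1 that rose in WT, 15 that fell in WT against EV with R1881 and 1 that fell in 3A against WT with R1881. The correction for gene length and GC gave 2 that rose in 3A. Scaling by RLE or by TMM without ribosomal protein and mitochondrial genes, a filter of 1 CPM in 3 libraries, and leaving out paralogs, readthrough names and RPS19BP1 kept each of these counts within 1.5 times.

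The labels number the libraries 1 to 3 in each group without saying what a number stands for. Deviations from the group means correlated between same-numbered libraries with a median r of 0.17 (-0.27 to 0.46, 31 of 45 pairs over 0.1), against -0.11 between libraries of other numbers (15 of 90 over 0.1). Not every same-numbered pair exceeded 0.1, so the numbers were not taken to pair the libraries. Yet 16 of 18 libraries correlated best, on average, with the libraries of their own number in other groups. With the number as a replicate block, the response to R1881 had 5 higher and 2 lower in EV, 1 higher and 11 lower in WT, and 1 higher in 3A; 25 fell in WT against EV with R1881, 31 in 3A against EV with vehicle and 38 with R1881; 2 rose and 22 fell in 3A against WT with vehicle, and 1 fell with R1881. The block together with the length and GC correction gave 8 that rose and 1 that fell in EV, 7 that fell in WT, 6 that rose and 1 that fell in 3A, 15 that fell in WT against EV with R1881, 33 that fell in 3A against EV with vehicle, 2 that rose and 24 that fell in 3A against WT with vehicle, and 2 that rose and 1 that fell with R1881.

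Chosen after the data had been seen were 3 further alternatives. Joining pseudogene counts to their parent genes kept each count within 1.5 times. The correction for coding length and GC gave 7 that rose and 3 that fell in EV, 1 that rose and 8 that fell in WT, 2 that rose and 1 that fell in 3A, 3 that rose in 3A against WT with vehicle and 3 that fell with R1881. Without WT vehicle library 3, 3A vehicle library 1 and 3A R1881 library 1, which stand apart from the other libraries of their groups, the response to R1881 had 8 higher and 2 lower in EV, 2 higher and 1 lower in WT, and 2 higher and 5 lower in 3A; 25 fell in WT against EV with R1881, 29 in 3A against EV with vehicle and 40 with R1881; 3 rose in 3A against WT with vehicle and 13 fell with R1881, and the response of 3A minus EV had 1 lower.

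Leaving out 1 library at a time gave, for R1881 against vehicle, 1 to 3 that rose in EV, 0 to 1 that rose and 0 to 6 that fell in WT, and 0 to 1 that rose and 0 to 3 that fell in 3A. For WT against EV 0 to 2 rose with vehicle and 0 to 15 fell with R1881. For 3A against EV 9 to 20 fell with vehicle, and 0 to 1 rose and 11 to 31 fell with R1881. For 3A against WT 1 to 3 rose and 5 to 22 fell with vehicle, and 0 to 1 rose and 0 to 3 fell with R1881.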

Other observations

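Mitochondrially encoded mRNAs, which are transcribed from the mitochondrial genome, were among the lists examined. Of 13, MT-ATP6 fell in 3A against EV with vehicle (-0.70, edgeR adjusted p = 0.0231), and MT-ND4L rose with R1881 (0.75, edgeR adjusted p = 0.0331). Their medians were -0.26 and 0.36. Reads of mitochondrial genes made up 2.71% to 5.70% of a library.

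Pseudogene rows named after RPL13A did not follow their parent. In the vehicle libraries 1, 2 and 3 they summed to 133, 116 and 121 CPM in EV, 106, 115 and 159 CPM in the libraries labelled WT, and 135, 203 and 208 CPM in 3A. With R1881 they summed to 138, 194 and 248 CPM in 3A, against 128, 132 and 149 CPM in EV. RPL13A itself measured 4080, 4571 and 4037 CPM in 3A with vehicle and 4712, 4350 and 4928 CPM in EV. These rows were chosen after their values had been seen, and how reads that fit both a pseudogene and its parent were counted was not stated by the sources at hand. Library 1 of 3A lay nearest to EV here in both treatments, as it did for RPL26 and RPS23.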
